A study of Mus musculus with 4 samples.

Results

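The 10 genes described here, Slc40a1, Hmox1, Fth1, Ftl1, Tfrc, Slc11a1, Slc11a2, Ncoa4, Blvrb and Ireb2, handle iron and heme in the cell, and they were taken by gene symbol from a table of 21878 genes. All 10 were found in the table and all 10 had enough reads to be tested. The libraries came from bone-marrow-derived macrophages (BMDM) of C57BL/6 mice labelled as 8 weeks old, 2 of wild-type (WT) and 2 of anti-Act1 genotype. The labels and the study's figure legend give these genotypes, while a passage of its methods names Apc-mutant (ApcMin/+) mice without and with anti-Act1. The labels are followed here. Every library, WT included, came from macrophages labelled as cocultured with MC38, a mouse colon cancer cell line, for 48 h, so no library shows macrophages without tumour cells, and the study's own text gives a shorter coculture. The macrophages were grown from marrow with M-CSF and kept apart from the tumour cells by a porous insert. Anti-Act1 mice are a line with Act1, an adaptor of interleukin 17 signalling encoded by Traf3ip2, knocked down in macrophages, and how the knockdown is driven is not given in the sources used here. The study calls the libraries biological replicates, but no label ties them to separate animals, so the p-values measure the spread between these libraries. The fit estimates this spread partly from all genes together, not from each gene alone.

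Macrophages clear aged red cells and return their iron to the blood, which makes them the main recyclers of iron in the body. Iron enters with transferrin through the transferrin receptor (Tfrc), leaves the endosome through divalent metal transporters (Slc11a2, and Slc11a1 in phagosomes), is stored in ferritin (Fth1 and Ftl1) and leaves the cell through ferroportin (Slc40a1), while heme is opened by heme oxygenase (Hmox1) to release iron and biliverdin. The iron regulatory proteins, of which Ireb2 encodes one and Aco1 the other, bind a short RNA hairpin, the iron-responsive element, when iron is scarce. Bound at the start of an mRNA they block its translation, and bound near its end they protect it from decay.

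The hairpin is shown because it divides the members into those with the element at the 5′ end, those with it at the 3′ end and those without it. The GENCODE M21 transcripts of protein-coding genes (build GRCm38, sense strand, whole length) were searched for CNNNNNCAGTGN followed by 5 bases able to pair, with G-T pairs allowed, with the 5 bases before the loop. In each 30-base stretch below, capitals mark the bulged C and the 6-base loop. The 5′ UTR matches lay at chr19:9982732-9982761 on the plus strand for Fth1, at chr7:45459778-45459807 on the minus strand for Ftl1, and at chr1:45925464-45925493 on the minus strand for Slc40a1.
Fth1: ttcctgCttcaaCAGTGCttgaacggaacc
Ftl1: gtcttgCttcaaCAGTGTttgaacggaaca
Slc40a1: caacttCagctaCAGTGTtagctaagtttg

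The 3′ UTR of Tfrc held 4 matches on the plus strand, from a to d at chr16:32631219-32631248, chr16:32631598-32631627, chr16:32631663-32631692 and chr16:32631710-32631739. In Slc11a2 a match was found only when 1 unpaired base was allowed on the 3′ side of the stem, in the 3′ UTR at chr15:100395152-100395181 on the minus strand.
Tfrc site a: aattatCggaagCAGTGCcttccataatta
Tfrc site b: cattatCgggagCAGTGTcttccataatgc
Tfrc site c: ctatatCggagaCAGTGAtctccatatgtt
Tfrc site d: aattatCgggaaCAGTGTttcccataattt
Slc11a2: agccatCagagcCAGTGTgtttctatggtt

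The strict pattern was present in 4 of the 10 members and in 294 of 21877 protein-coding genes (1.34%), and the pattern with 1 unpaired base in 598 genes (2.73%), Slc11a2 being the sole member among them. These letters were not found in the transcripts of Hmox1, Slc11a1, Ncoa4, Blvrb or Ireb2. A match is a description of the sequence, and the counts, taken per gene, do not separate transcripts that carry the element from those that lack it.

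Traf3ip2, the targeted gene, was at 6.98 and 7.54 CPM (read counts scaled to library size) in the WT-labelled libraries against 9.63 and 7.84 CPM in the anti-Act1-labelled ones. The log2 fold change was 0.27 (SE 0.12) with an edgeR adjusted p of 0.117, and it became 0.11 when anti-Act1 replicate 1 was left out and 0.41 (edgeR adjusted p = 0.0343) when anti-Act1 replicate 2 was. Its transcript was therefore no lower where the label says anti-Act1, and all directions below rest on the label. The study reported reduced Act1 in BMDM of anti-Act1 mice, measured outside these libraries, and that measurement was not analysed here. Total counts were 55435063 to 75062945 per library, so a count of 0 allowed at most 0.0395 to 0.0549 CPM (3 counts, counting error only). The 4 Y-linked genes examined summed to 228 to 246 CPM in the WT-labelled libraries and to at most 0.0162 CPM in the anti-Act1-labelled ones, so the sex of the mice and the genotype cannot be told apart. The summed level of 10 macrophage markers overlapped between groups (25811 to 26862 against 26373 to 27219 CPM). Most of this sum was Lyz2 (16811 and 15811 against 17135 and 17736.5 CPM), higher in both anti-Act1-labelled libraries but not called. Adgre1, Csf1r and Fcgr1 were lower in both anti-Act1-labelled libraries, also without a call. Itgam, Mertk, C1qa and C1qb were called lower by 0.31 to 0.46 on the log2 scale and Cd14 was called higher (0.16). Of these calls, that of Cd14 was lost in 6 of the 13 alternatives. Among them were all limma fits and those without WT replicate 2 (0.13) or anti-Act1 replicate 1 (0.16). Of 10 erythroid markers 5 were at 0 in every library, among them Hbb-bs, Hbb-bt and Hba-a2, and the list summed to 1.52 to 1.61 CPM in WT and 0.989 to 1.47 CPM in anti-Act1. Of 10 epithelial tumour cell markers 6 were at 0, Krt8 and Krt18 included, and the list summed to at most 0.464 CPM in any library. Of 10 neutrophil markers 7 were tested, 1 of them called higher and 4 lower, and the list summed to 7.54 to 7.71 CPM in WT and 6.70 to 7.68 CPM in anti-Act1. The summed levels of T cell markers (25.8 to 26.0 against 28.4 to 31.7 CPM, mostly Cd4, called higher at 0.21), B cell markers (2.91 to 3.18 against 3.69 to 4.03 CPM) and fibroblast markers (1.76 to 1.88 against 2.23 to 2.48 CPM) were higher in both anti-Act1-labelled libraries, and that of mast cell and basophil markers (0.913 to 1.13 against 0.385 to 0.551 CPM) was lower in both, while dendritic cell markers overlapped (4.37 to 5.31 against 4.26 to 4.93 CPM). Among the tested genes of these 5 lists Cd4 alone was called, and its call was lost in 8 of the 13 alternatives, including those without WT replicate 1 (0.21), WT replicate 2 (0.20) or anti-Act1 replicate 2 (0.12, edgeR adjusted p = 0.507). The part of these shifts in the values of the iron and heme genes was not tested.

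The 10 members spanned a wide range of levels (the plot of member levels by library). On the per-length scale of the deposited FPKM, averaged over the 4 libraries, Fth1 stood highest at 21162 FPKM, followed by Ftl1 at 8297, Hmox1 at 519, Slc11a1 at 188, Blvrb at 112 and Ncoa4 at 51.3 FPKM. The ranges of the 4 libraries did not overlap between any neighbours in this part of the order. Below them came Slc40a1 at 30.1, Slc11a2 at 27.1, Tfrc at 20.8 and Ireb2 at 16.5 FPKM. Here the ranges over all 4 libraries overlapped between neighbours. The place of Slc40a1 differed between the groups, while Slc11a2 stood above Tfrc in both. In the WT-labelled libraries Slc40a1 (40.1 and 41.1 FPKM) stood above Slc11a2 (24.8 and 23.5) and this above Tfrc (16.5 and 16.7), whose values overlapped those of Ireb2 (16.1 and 18.3). In the anti-Act1-labelled libraries Slc11a2 (29.95 and 30.2 FPKM) stood above Tfrc (25.8 and 24.3), Slc40a1 (20.5 and 18.7) and Ireb2 (16.5 and 15.2), in that order and without overlap. Together the ferritin chains took 2.62% and 2.53% of all counts in the WT-labelled libraries and 2.95% and 3.09% in those labelled anti-Act1.

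**Figure D1:**
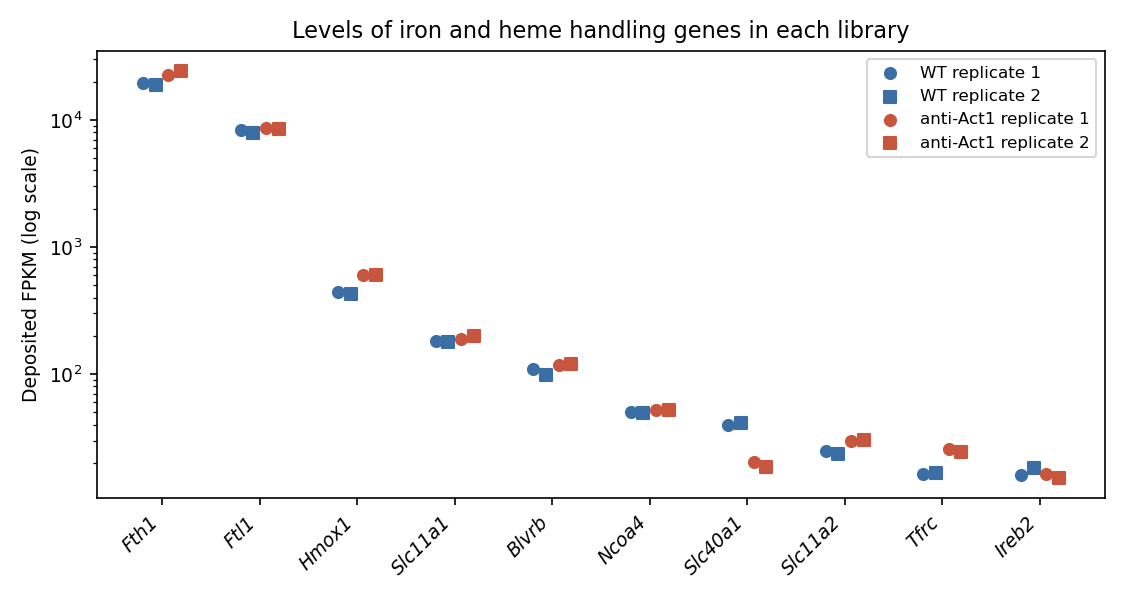
The level of each of the 10 iron and heme genes in each of the 4 libraries, in deposited FPKM on a log axis, with WT-labelled and anti-Act1-labelled libraries in separate colours. Fth1 and Ftl1 lie more than a decade above Hmox1, and the groups stand clearly apart for Slc40a1 and Tfrc.

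Between the anti-Act1-labelled and WT-labelled libraries, 6 of the 10 genes passed the threshold of an adjusted p under 0.05 (edgeR's quasi-likelihood test, Benjamini-Hochberg adjustment over 12494 genes, two-sided). Tfrc, Hmox1, Slc11a2, Fth1 and Blvrb rose and Slc40a1 fell. Over all genes tested, 20.7% passed, with 10.9% higher and 9.76% lower, and DESeq2 called 16.8% of them and 7 of the members, Slc11a1 being the addition. The CPM of the groups did not overlap for 9 of the 10 members, against 57.1% of all genes. No member had fewer than 3414 counts in a library, while the genes tested also held ones with far fewer. The shares of members and of all genes were thus not compared at like depth. The median log2 fold change of the members was 0.18, and that of all genes −0.0046. In bulk RNA, fewer cells of a type and less RNA per cell cannot be told apart.

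**Figure D2:**
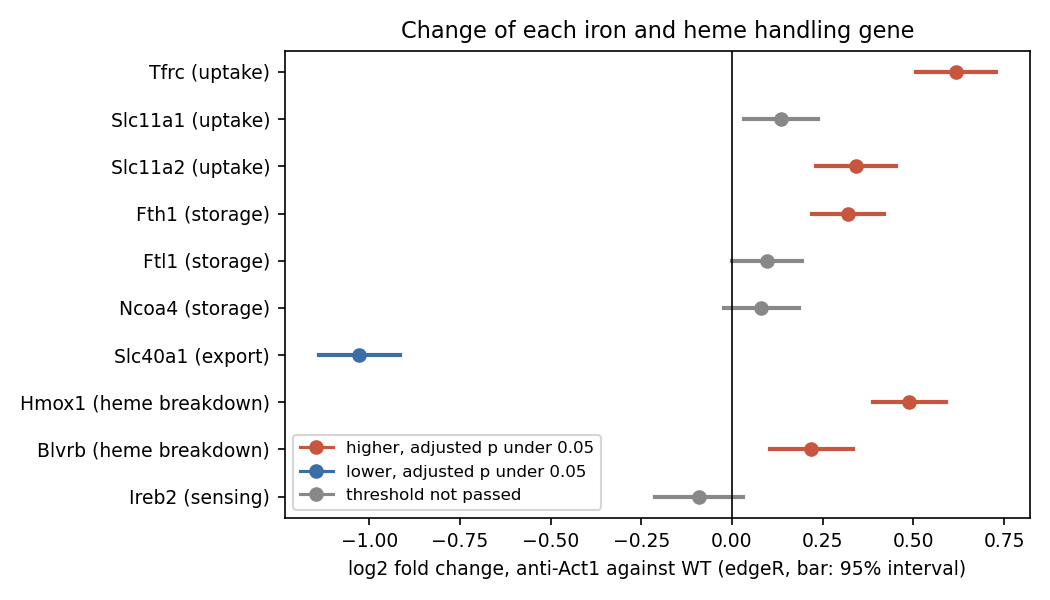
Log2 fold change of each of the 10 genes, anti-Act1-labelled over WT-labelled libraries, with bars for the 95% confidence interval of the edgeR fit and colour for the side of the 0.05 adjusted p threshold. Slc40a1 at −1.03 is the sole member past the threshold below 0, and the 5 members past it above 0 run from Blvrb at 0.22 to Tfrc at 0.62.

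Slc40a1 encodes ferroportin, the exporter of iron from cells, and lies at chr1:45908068-45926523 on the minus strand of GRCm38. It was at 131 and 134 CPM in the WT-labelled libraries and at 67.8 and 62.5 CPM in the anti-Act1-labelled libraries. Both anti-Act1-labelled values were thus far under both WT-labelled ones, with no overlap. The mean fell from 133 ± 1.87 to 65.1 ± 3.71 CPM (SD, n = 2), a log2 fold change of −1.03 (95% interval −1.14 to −0.91, edgeR adjusted p = 6.04e-20) and a level 2.04-fold lower. Per length it went from 40.1 and 41.1 to 20.5 and 18.7 FPKM. Of the 12494 genes tested, 143 had a log2 fold change as low or lower, Slc40a1 counted. The call stood in all 13 alternative settings.

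Tfrc, the transferrin receptor and the main door for transferrin-bound iron, lies at chr16:32608920-32632794 on the plus strand. Its level was 76.4 and 77.2 CPM in the WT-labelled libraries against 120 and 115 CPM in the anti-Act1-labelled libraries. The replicates of each group lay close together and the groups were well apart. Its rise of 53.5% corresponded to a log2 fold change of 0.62 (95% interval 0.51 to 0.73, edgeR adjusted p = 8.78e-13), and 630 genes had one as high or higher, Tfrc counted. In FPKM the 4 values were 16.5, 16.7, 25.8 and 24.3, in the same order of libraries.

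Slc11a2 encodes the divalent metal transporter that carries iron out of endosomes, and lies at chr15:100387898-100425072 on the minus strand. It was at 81.8 and 77.1 CPM in the WT-labelled libraries against 99.6 and 102 CPM in the anti-Act1-labelled ones. The groups did not overlap, and the log2 fold change was 0.34 (95% interval 0.23 to 0.45, edgeR adjusted p = 3.68e-06). Its annotated span overlaps the antisense gene Gm5475, which the count table does not list. The related Slc11a1, a phagosomal metal transporter known for its part in resistance to intracellular microbes, lies at chr1:74375195-74386062 on the plus strand and stood at 427 and 417 against 448 and 479 CPM. Both anti-Act1-labelled values were above both WT-labelled ones, but its log2 fold change of 0.14 (95% interval 0.03 to 0.24) had an edgeR adjusted p of 0.0514, just outside the threshold. With WT replicate 1 left out it was 0.15 with an adjusted p of 0.0470, and it also passed in 4 other settings, with DESeq2 at 0.0349.

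Fth1 and Ftl1 encode the heavy chain of ferritin, which oxidises iron, and the light chain, which helps to lay it down as a mineral core. Fth1, at chr19:9980598-9985098 on the plus strand, was at 18072 and 17439 CPM in the WT-labelled libraries and at 21223 and 23099.9 CPM in the anti-Act1-labelled libraries. By FPKM it held rank 2 of all listed genes in both WT-labelled libraries and rank 1 in both anti-Act1-labelled ones. The groups did not overlap, and it rose by 24.8% (log2 fold change 0.32, 95% interval 0.22 to 0.42, edgeR adjusted p = 1.23e-06). On log2 of the FPKM, limma gave 0.29 and did not call it, with an adjusted p of 0.0923 for a pseudocount of 1. Ftl1, at chr7:45457944-45459884 on the minus strand, was at 7945 and 7617 against 8337 and 8307 CPM, where the anti-Act1-labelled values were again the higher ones. Its log2 fold change of 0.10 (95% interval 0.00064 to 0.19, edgeR adjusted p = 0.156) did not pass. Both chains have near-identical processed copies in the genome, between which reads could have been split, so their values are uncertain to that degree. The span of Ftl1 also overlaps Gm10252 and Gm22133, which the count table does not list. Of 14 ferritin copies looked for, the count table lists 6, all of the ferritin-like Fthl17 family and at 0 in all libraries. The copies that it does not list could not be checked. Ncoa4, the receptor that delivers ferritin to the lysosome, lies at chr14:32159865-32179855 on the plus strand and was at 187 and 182 against 193 and 197 CPM. These ranges did not overlap either, but the log2 fold change of 0.08 (95% interval −0.02 to 0.18, edgeR adjusted p = 0.293) did not pass.

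Hmox1, the inducible heme oxygenase, lies at chr8:75093621-75100589 on the plus strand. It stood at 694 and 669 CPM in the WT-labelled libraries and at 953 and 959 CPM in the anti-Act1-labelled libraries. The groups were widely apart and the anti-Act1-labelled replicates nearly equal. Its mean rose from 681 ± 17.8 to 956 ± 4.61 CPM (SD, n = 2), a log2 fold change of 0.49 (95% interval 0.39 to 0.59, edgeR adjusted p = 7.08e-11). Blvrb encodes a biliverdin reductase that also reduces flavins, and lies at chr7:27447978-27466144 on the plus strand. It was at 89.9 and 80.4 against 97.3 and 101 CPM, with WT replicate 2 the lowest of the 4 libraries. The groups did not overlap and the log2 fold change was 0.22 (95% interval 0.10 to 0.33, edgeR adjusted p = 0.0035). This call was lost without WT replicate 2 (0.14, edgeR adjusted p = 0.125) and without anti-Act1 replicate 2 (0.19, edgeR adjusted p = 0.0783).

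Ireb2 encodes iron regulatory protein 2, one of the proteins that bind the hairpins shown above, and lies at chr9:54863789-54912530 on the plus strand. It was at 69.8 and 78.8 CPM in the WT-labelled libraries and at 72.1 and 67.5 CPM in the anti-Act1-labelled libraries. It was the one member whose groups overlapped, with WT replicate 1 below anti-Act1 replicate 1. Its log2 fold change was −0.09 (95% interval −0.21 to 0.03, edgeR adjusted p = 0.324), and it was −0.18 without WT replicate 1 (edgeR adjusted p = 0.0364) and 0.00057 without WT replicate 2. This protein is known to be controlled mainly by its breakdown, which RNA does not measure.

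Read by the hairpins, the members with the element at the 5′ end did not move together. Slc40a1 fell and Fth1 rose, while Ftl1 did not pass. Read counts do not measure translation, the step that is blocked from the start of an mRNA. Both members with a match at the 3′ end, Tfrc and Slc11a2, rose, though Slc11a2 matched only the looser pattern with 1 unpaired base. Among the 5 members without a match, Hmox1 and Blvrb rose and Slc11a1, Ncoa4 and Ireb2 did not pass. These are counts over few genes, to be read against the 20.7% of all genes called, and the calls of Blvrb, Fth1, Slc11a1 and Ireb2 changed with the setting, as given above.

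Ratios of members within a library do not depend on how libraries are scaled to each other, and 5 such FPKM ratios were computed. Tfrc to Slc40a1, uptake against export, was 0.411 and 0.407 in the WT-labelled libraries and 1.26 and 1.30 in those labelled anti-Act1. Tfrc was thus below Slc40a1 in both libraries of the former group and above it in both of the latter, a 3.13-fold higher ratio (log2 difference 1.65, between 1.62 and 1.67 with any library left out). Hmox1 to Slc40a1 was 11.04 and 10.43 against 29.4 and 32.1, a 2.86-fold higher ratio. The ratio of the ferritin chains, Fth1 to Ftl1, was 2.34 and 2.36 against 2.62 and 2.86, a difference of 0.22 on the log2 scale (0.16 to 0.29 with any library left out). Hmox1 to Blvrb was 4.03 and 4.34 against 5.10 and 4.97, and Slc11a1 to Slc11a2 was 7.35 and 7.62 against 6.34 and 6.63. In each of the 5 ratios the groups did not overlap. For Tfrc to Slc40a1 and Hmox1 to Slc40a1 this follows from the levels given above, and both share Slc40a1 as denominator. The two-sided exact permutation p of each ratio was 0.333, the smallest that 2 against 2 libraries can give, also before adjustment over the 5.

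**Figure D3:**
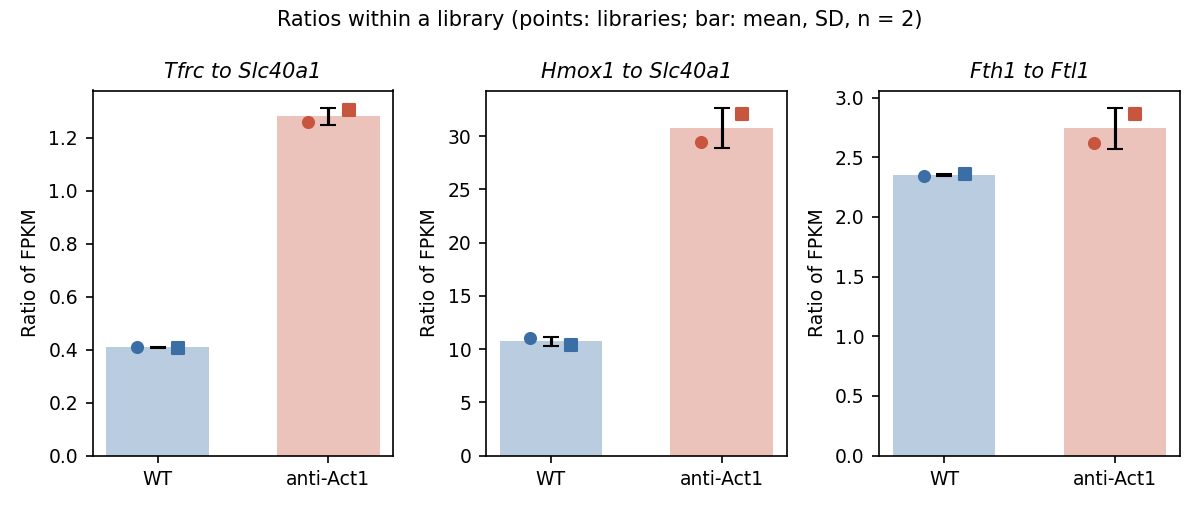
The FPKM ratios of Tfrc to Slc40a1, Hmox1 to Slc40a1 and Fth1 to Ftl1 within each library, 1 panel each on a linear axis from 0, with 1 point per library and bars for the mean and SD (n = 2) of the WT-labelled and anti-Act1-labelled groups. Both anti-Act1-labelled points lie above both WT-labelled points in all 3 panels, with the smallest gap for Fth1 to Ftl1.

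The other genes of iron and heme metabolism were described from a list of 65 genes in 7 subgroups, the members included. Without the members, 44 of the other 55 were tested and 13 were called, 7 higher and 6 lower (29.5%, against 20.7% of all genes), and their median log2 fold change was 0.02. Around iron uptake, Trf, which encodes transferrin itself, was at 1960 and 1913 CPM in the WT-labelled libraries and at 1130 and 1183 CPM in the anti-Act1-labelled libraries, so the groups were far apart. It fell by 0.74 on the log2 scale (SE 0.05, edgeR adjusted p = 1.05e-16). Tfr2, another transferrin receptor, was scarce with 44 and 54 against 90 and 77 counts, and its call at 1.04 (SE 0.32, edgeR adjusted p = 0.0143) was lost when any of the 4 libraries was left out (edgeR adjusted p from 0.0587 to 0.0872). Steap3, the endosomal ferrireductase (0.05, edgeR adjusted p = 0.597), and Lcn2, which binds siderophores (0.17, edgeR adjusted p = 0.788), did not pass. Among partners of export, Cp, the ferroxidase ceruloplasmin, did not pass (0.18, edgeR adjusted p = 0.599). Hamp, the hormone hepcidin that removes ferroportin from the cell surface, had 1, 0, 1 and 0 counts, under the floor.

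In heme handling, Slc48a1, the heme transporter of the phagolysosome, was at 251 and 252 against 320 and 315 CPM and rose by 0.34 on the log2 scale (SE 0.05, edgeR adjusted p = 9.06e-07). Slc46a1, a carrier of folate and heme, was at 22.8 and 22.4 against 28.5 and 29.6 CPM and rose as well (0.36, SE 0.07, edgeR adjusted p = 0.000131). Cd163, the receptor for hemoglobin bound to haptoglobin, fell from 79 and 78 to 28 and 18 counts (log2 fold change −1.51, SE 0.38, edgeR adjusted p = 0.0025), a level of at most 1.22 CPM in any library. Haptoglobin (Hp), chosen after its value was seen, completed the calls of this subgroup at 0.19, and its call was lost without WT replicate 2 (0.08, edgeR adjusted p = 0.574) and without either anti-Act1 library (0.20 and 0.18), and in 8 of the 13 alternatives in all, DESeq2 (adjusted p = 0.112) and the 3 limma fits among them. Flvcr1, a heme exporter listed under its older name Mfsd7b, was at 0.14 (edgeR adjusted p = 0.052) and passed in 4 alternatives, among them DESeq2 (adjusted p = 0.0430) and the fit without WT replicate 2 (0.17, edgeR adjusted p = 0.0336). The constitutive heme oxygenase Hmox2 (−0.04) and the other biliverdin reductase, Blvra (−0.14, edgeR adjusted p = 0.0612), did not pass, though Blvra did in 4 alternatives, among them no composition normalization (−0.17, edgeR adjusted p = 0.0312) and the fit without WT replicate 2 (−0.17, edgeR adjusted p = 0.0486). Of the 9 genes of heme synthesis, 0 passed with edgeR or with DESeq2 and 1 had an unadjusted edgeR p under 0.05, with log2 fold changes from −0.43 to 0.15, and 1 passed when WT replicate 2 was left out.

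Of the 6 other genes of iron sensing and transcriptional control that were tested, 1 rose and 3 fell, where 10.9% of all genes were called higher and 9.76% lower. Fbxl5, which marks Ireb2 protein for breakdown, rose by 0.16, and Aco1, the other iron regulatory protein, fell by 0.16. Hfe, the hemochromatosis protein, fell by 0.18 and Bach1, a repressor of Hmox1 that heme inactivates, fell by 0.16, while Nfe2l2 (−0.08), an activator of Hmox1, and Spic (−0.28, SE 0.17), a factor of heme-recycling macrophages, did not pass. Fbxl5 and Aco1 lost their calls in 8 and 9 of 13 alternative settings (with the replicate number as a block, edgeR adjusted p = 0.0633 and 0.0800), in both cases also without WT replicate 2 (0.13 and −0.12) or either anti-Act1 library (0.14 and 0.17 for Fbxl5, −0.12 and −0.18 for Aco1). Bach1 lost its call with limma without a filter (−0.18, adjusted p = 0.0804). The call of Bach1 was also lost without WT replicate 2 (−0.12) or either anti-Act1 library (−0.16 for both). Hfe lost its call without anti-Act1 replicate 1 (−0.19) or anti-Act1 replicate 2 (−0.17). Of the 8 mitochondrial genes, Slc25a37, the iron importer mitoferrin, and Iscu, the iron-sulfur scaffold, both named after their values were seen, rose by 0.33 and 0.20. Iscu lost its call with limma without a filter (0.17, adjusted p = 0.0768) and without anti-Act1 replicate 1 (0.17).

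**Figure D4:**
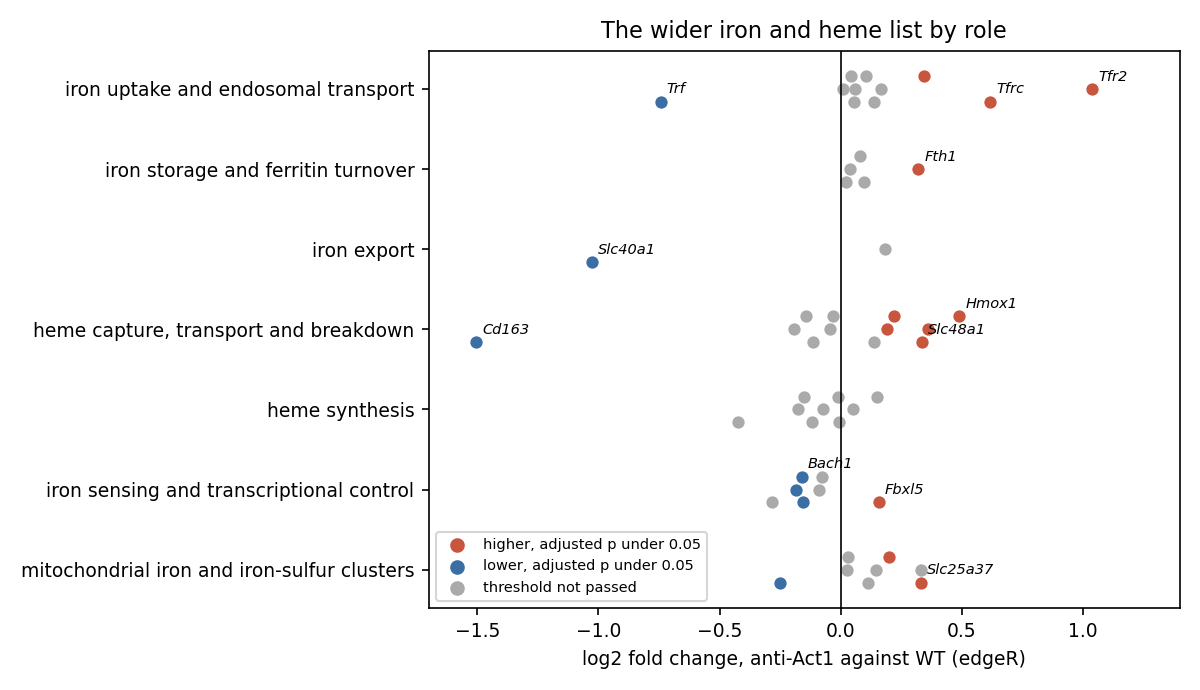
Log2 fold changes, anti-Act1-labelled over WT-labelled libraries, of the 54 tested genes of the iron and heme list by subgroup, 1 point per gene, coloured by the side of the 0.05 adjusted p threshold of edgeR. Slc40a1, Trf and Cd163 lie farthest to the left and Tfrc and Tfr2 farthest to the right, and no gene of heme synthesis is coloured.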

How the data were processed

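Per the methods, the authors filtered out adapter-bearing, ambiguous and low-quality reads before aligning the pairs with TopHat. The submitters' processing notes name Bowtie 0.12.2, HTSeq 0.6.1 and the builds mm8 and mm10 with no role, and the annotation and any strand setting are not given in the sources used here. The authors deposited whole read counts per gene, without normalization, and FPKM. These FPKM equal the counts divided by a gene length and the column total, within 0.1% for all 13188 genes with counts above 0 in every library.

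Counts were fitted with edgeR 4.0.16 (R 4.3.3) with TMM, filterByExpr, condition as the only term and a quasi-likelihood F test (two-sided), with Benjamini-Hochberg adjustment over 12494 genes and a threshold of 0.05. CPM are counts scaled to the TMM-adjusted library total. Standard errors are the absolute log2 fold change divided by the root of F, and intervals are at 95%. Levels were compared between genes only in FPKM. The members and all lists were chosen with earlier results of these data known. The named genes are the members, Traf3ip2, 15 partners, and from the wider list up to 5 rises and 5 falls past the threshold whose mean reached 1 CPM and whose groups did not overlap, ferritin copies, and markers named with their list. The rule also names 1 gene that is not reported here. Flvcr1 and Flvcr2 were matched through older names in RefSeq. Gene positions and UTRs are from GENCODE M21 (GRCm38), and the deposited counts carry no coordinates.

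The 13 alternatives were DESeq2 1.42.0, edgeR with the size factors of DESeq2, with library totals alone, with all genes kept, with a minimum of 10 counts per library, or with the replicate number as a block, limma 3.58.1 on log2 of the FPKM plus 1 or 0.1 (FPKM of at least 1 in 2 libraries) or plus 1 unfiltered, and fits that dropped 1 library each. Leaving libraries out of the ratios was added after the data were seen. Replicates differed beyond sampling noise (chi-square per degree of freedom 10.8 in WT and 7.45 in anti-Act1). On simulated counts of this comparison with 200 genes changed by a log2 fold of 1, edgeR recovered 197 and falsely called 12 among 12382 genes, DESeq2 190 and 2, and limma 193 and 29 among 10147. The changed genes were drawn only from those with higher counts. Smaller changes, like those of most members, were not simulated, so their recovery is not known.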

Additional observations from a re-analysis of the deposited data

How the results depend on the processing

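Slc40a1, Tfrc, Hmox1 and Slc11a2 kept their direction and their call in all 13 alternatives, and Ftl1 and Ncoa4 passed in none. The count of members called ran from 4 to 8, and from 5 to 8 with a library left out. Slc11a1 passed at 0.14 with DESeq2, with its size factors in edgeR, without a filter and with at least 10 counts in every library (0.088 to 0.19 with a library left out). Fth1 lost its call at 0.29 with limma on log2 of the FPKM, with pseudocounts of 1 and 0.1 (adjusted p = 0.0923 and 0.0981) and without a filter (adjusted p = 0.681), and lay between 0.26 and 0.38 with a library left out. Blvrb lost its call at 0.19 with limma without a filter (adjusted p = 0.134) and ran from 0.14 to 0.30 with a library left out. Ireb2 ran from −0.18 to 0.00057. With limma without a filter on low values, 1092 genes in all and 11 of the wider list were called. With a library left out these counts ran from 1671 to 2543 and from 12 to 21, where fewer libraries enter the fit, and the lowest calls for all genes came without anti-Act1 replicate 2 (1671) and replicate 1 (1712). Reversed values without a call were those of Hmox2 (0.012 without WT replicate 1, from −0.10 otherwise), Lcn2 (−0.02 without WT replicate 2, −0.039 without anti-Act1 replicate 1, up to 0.37 otherwise) and Cp (−0.034 without anti-Act1 replicate 1, up to 0.37 otherwise). The causes were not tested. Library scaling moved the median log2 fold change of all genes at most to −0.03.

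The replicate numbers pair no samples by any label, and the deviations of same-numbered libraries correlated at −0.0345 over 12494 genes. With the number as a replicate block, 2406 genes, 6 members and 17 genes of the wider list were called, Fbxl5, Aco1 and Cd14 lost their calls, and no other named call changed.

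With 2 libraries a group, no two-sided exact permutation test of a single value can go below 0.333.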
